A study of Rattus norvegicus with 6 samples.

Results

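Fatty acid binding proteins were examined in rat flat pluripotent stem (fPS) cells and rat embryonic stem (ES) cells. The members were chosen by gene symbol, as all probe sets whose only symbol in the platform's annotation table was Fabp1, Fabp2, Fabp3, Fabp4, Fabp5 or Fabp7. The family itself was picked from the transcript levels of these same arrays, with the difference between fPS and ES cells already known, so the members' differences are given as a description, and no test result is drawn on to support them. The rule found 6 genes with 1 probe set each, of 14217 genes and 31042 probe sets in all. The platform was an Affymetrix array that reads the 3' ends of transcripts. Each of 3 fPS and 3 ES samples of total RNA had an array of its own. All cells were of the Sprague-Dawley strain. Both groups were described as grown with LIF, the GSK3 inhibitor CHIR99021 and the MEK inhibitor PD0325901 and kept on mouse embryonic fibroblasts arrested with mitomycin C, in a medium with serum. The labels do not state whether the samples of a group were separate cultures, lines or clones, so the spread between them may be technical. The description field of the fPS samples names embryonic stem cells, while their titles and cell type field name fPS cells.

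Fatty acid binding proteins are small cytosolic proteins that fold into a barrel around a fatty acid or another lipid. They carry these water-insoluble ligands between membranes, mitochondria, lipid droplets and the nucleus, where some of them hand ligands to PPAR nuclear receptors. Each member is best known from one kind of tissue: Fabp1 from liver, Fabp2 from small intestine, Fabp3 from heart and skeletal muscle, Fabp4 from adipocytes and macrophages, Fabp5 from epidermis, and Fabp7 from brain and radial glia.

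Fabp3 was the member that differed. Its mean intensity was 4136 ± 823 in fPS cells and 897 ± 197 in ES cells (SD, n = 3 each), a ratio of 4.61. Fabp5 was bright in both groups, with overlapping values, and Fabp1, Fabp2, Fabp4 and Fabp7 were dim on all 6 arrays. Across the arrays the median intensity of all probe sets ran from 36.2 to 45.3 and the 25th percentile from 9.50 to 15.2. The dim members reached at most 20.9 on any array, whereas Fabp3 and Fabp5 never lay below 750.1. Probe sets differ in how well they bind their targets, so these levels do not rank the genes by transcript number. The table came without detection calls, and a dim value is therefore not evidence that a transcript was lacking.

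**Figure D1:**
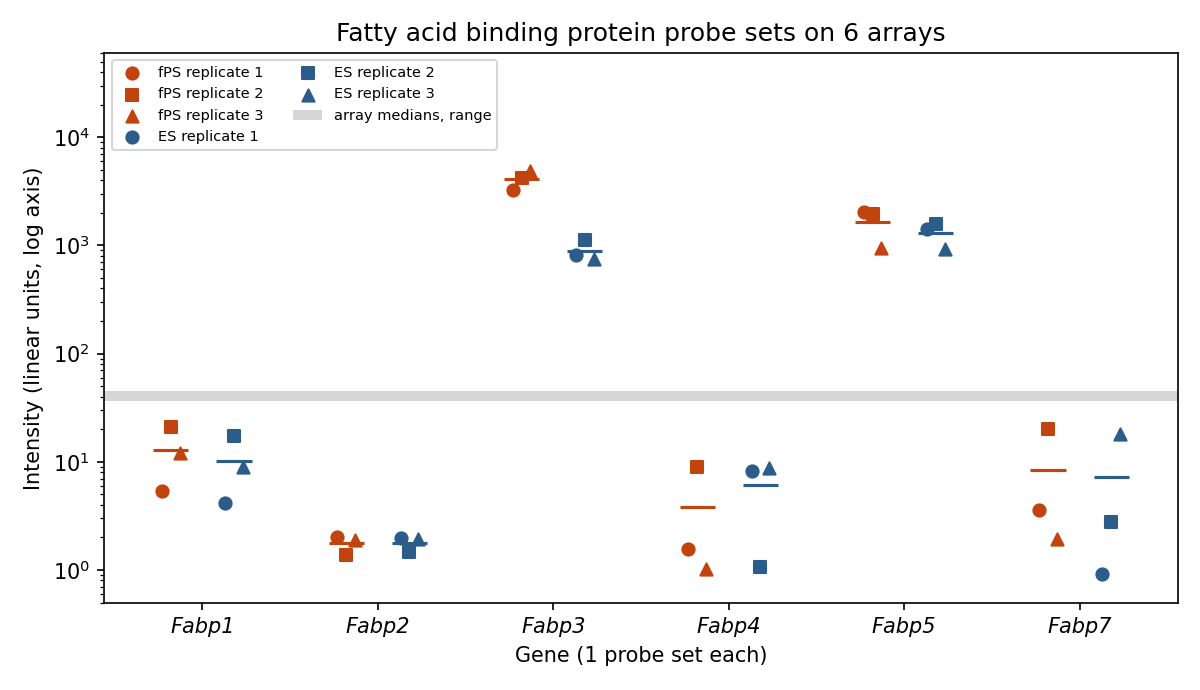
Intensity (linear units, log axis) of the 1 probe set of each gene, with a point for each array, fPS in orange and ES in blue, a short line at each group mean and a grey band over the range of array medians. All fPS points of Fabp3 lie above all its ES points, the groups of Fabp5 overlap between 950.3 and 1563, and the other genes lie below the band.

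The promoter windows of Fabp3 and Fabp1 are shown because they belong to the member with the largest difference and to a dim one, and because they differ in CpG content. RefSeq (build GRCr8) had an entry for 4 of the 6 members, Fabp1, Fabp2, Fabp3 and Fabp7. Each sequence is the 250 bases before the annotated start, on the plus strand, with CpG dinucleotides in capitals. For both genes the RefSeq gene span begins before this start.
Fabp3, chr5:147935875-147936124: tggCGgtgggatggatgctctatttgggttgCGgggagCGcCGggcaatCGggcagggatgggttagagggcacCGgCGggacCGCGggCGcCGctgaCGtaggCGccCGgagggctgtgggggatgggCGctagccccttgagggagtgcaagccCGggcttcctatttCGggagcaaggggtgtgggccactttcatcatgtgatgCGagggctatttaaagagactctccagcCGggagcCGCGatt
Fabp1, chr4:104749090-104749339: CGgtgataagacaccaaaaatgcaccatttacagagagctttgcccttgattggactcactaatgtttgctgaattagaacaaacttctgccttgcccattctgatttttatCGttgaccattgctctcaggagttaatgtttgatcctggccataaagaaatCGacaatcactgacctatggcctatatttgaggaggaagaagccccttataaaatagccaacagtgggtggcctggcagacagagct
The Fabp3 window held 21 CpG dinucleotides and 65.6% G or C, against 3 CpG and 43.2% for Fabp1, 3 and 40.4% for Fabp2, and 3 and 51.6% for Fabp7. Over 33465 windows of the same length the medians were 5 CpG and 51.2%, and 84.85% of the windows had fewer CpG than that of Fabp3. The motif TATAAA, searched on both strands like the others, occurred once in the Fabp1 window and in none of the Fabp2, Fabp3 and Fabp7 windows, and 12.9% of all windows held it. AGGTCA, the half-site that nuclear receptors such as the PPARs read, occurred once each in the Fabp1 and Fabp7 windows and in neither the Fabp2 nor the Fabp3 window (14.1% of all windows). Its exact direct repeat with 1 base between, the consensus form of the PPAR element, was in none of the 4 windows (0.0508% of all windows). Only exact copies were counted, so these windows may still hold PPAR elements that depart from the consensus. TGACGT, the core of the element that CREB binds, occurred once in the Fabp3 window and in none of the others (6.95% of all windows). CCAAT was found in the Fabp1, Fabp2 and Fabp7 windows and not in that of Fabp3 (34% of all windows), and GGGCGG only in that of Fabp7 (30.5%). These matches describe the letters of the windows, and no measurement of binding was at hand.

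Fabp3, the heart-type protein that supplies fatty acids to mitochondria in muscle, is encoded on chromosome 5 (GRCr8, chr5:147936027-147942870). Its intensity was 3266, 4240 and 4901 on the 3 fPS arrays, against 818, 1121 and 750.1 on the 3 ES arrays. The groups did not overlap, and the lowest fPS array was 2.91 times the highest ES array. Differences below are on the log2(intensity + 16) scale, where changes of dim probe sets come out too small. On it Fabp3 was higher in fPS cells by 2.19 (SE 0.249). By the size of a positive difference it ranked 25 of 14217 genes. Within the groups Fabp3 had a coefficient of variation of 19.9% in fPS cells and 22.0% in ES cells. In bulk RNA, more cells of a type and more transcript per cell cannot be told apart.

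In the limma fit over all probe sets, 1 of the 6 members, Fabp3, passed the adjusted threshold of 0.05 with a higher value in fPS cells, where 0.57% of all genes passed in that direction. Lower in fPS cells were 0 members, where 0.288% of all genes passed. In 1 member the lowest fPS array exceeded the highest ES array, and 11.3% of all genes had that pattern. The reverse pattern occurred in 0 members, again against 11.3%. Nothing is read from these counts, since the contrast was known when the family was picked. The median difference was 0.10 over the members and -4.6e-05 over all genes. The count of 1 became 0 when fPS replicate 2, fPS replicate 3, ES replicate 1 or ES replicate 3 was omitted, where the log2 difference of Fabp3 was 2.16, 2.06, 2.13 and 2.07. In these fits the whole array gave 0, 4, 0 and 1 called probe sets. Over all alternatives the difference of Fabp3 stayed between 1.94 and 2.36.

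**Figure D2:**
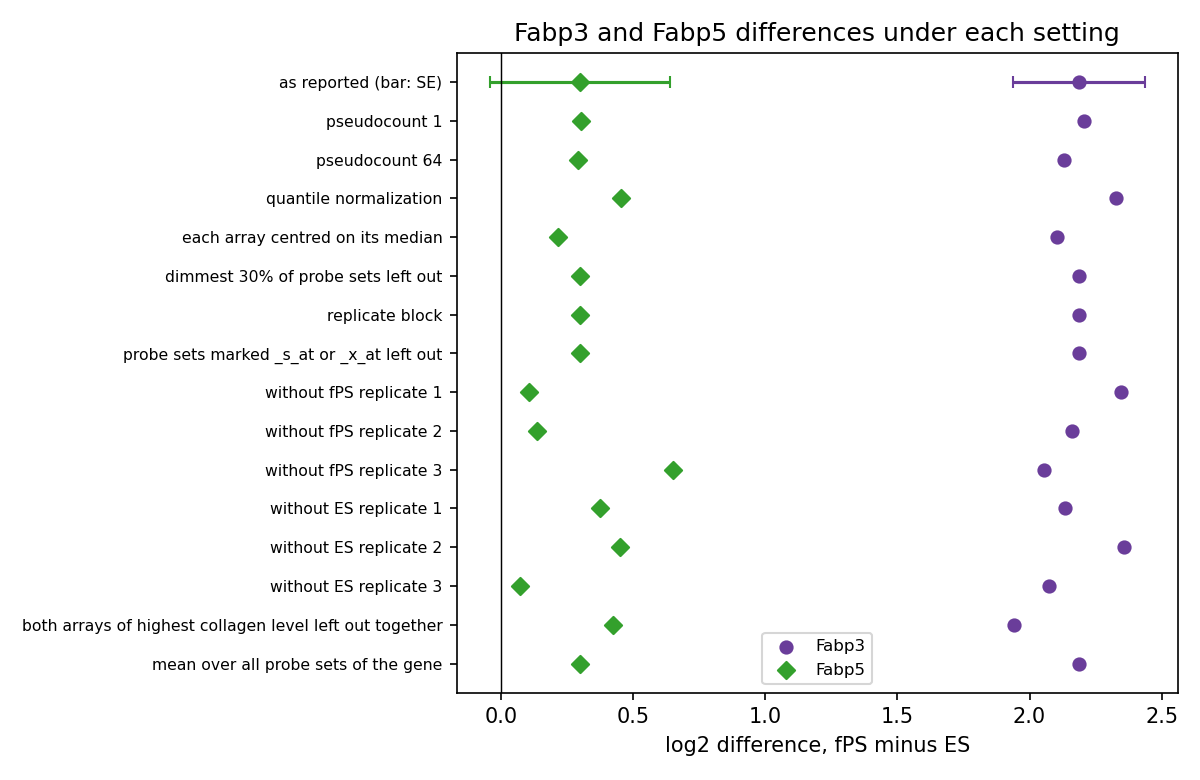
Log2 difference, fPS minus ES, of Fabp3 (circles) and Fabp5 (diamonds) under each way of processing, with the SE as a bar on the value as reported. Fabp3 lies between 1.94 and 2.36 in each setting shown, and Fabp5 between 0.072 and 0.65.

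None of the 4 measured genes nearest to Fabp3 had a difference of its size in the same direction. They were picked by position, as the 2 nearest measured genes on each side, after the values of Fabp3 had been seen. On the lower side Serinc2 and Tinagl1 had log2 differences of 0.25 (SE 0.323) and 0.62 (SE 0.261). On the higher side Snrnp40, a component of the spliceosome, had -0.23 (SE 0.242). Zcchc17, a zinc finger protein gene on the opposite strand, runs towards Fabp3, and the gene spans share 82 bases at their 3' ends. Zcchc17 had 66.3, 54.5 and 60.3 in fPS cells, against 135.5, 135.3 and 147 in ES cells. Its arrays did not overlap either, but in the opposite direction, with a log2 difference of -1.03 (SE 0.193) that did not pass (limma, adjusted p = 0.055).

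Since Fabp3 is known from muscle, genes of cardiac and skeletal muscle were read beside it. In limma 2484 of all 14217 genes had an unadjusted p under 0.05, the background for this list and those below. Of 14 muscle genes listed, 13 were measured and 0 passed in either direction, with 3 at an unadjusted p under 0.05. Their summed intensity ran from 333 to 391 on the fPS arrays and from 180 to 257 on the ES arrays. On every array 9 of the 13 lay below the median of all probe sets, among them the myosins Myh6, Myh7 and Myl2, the troponin Tnni3 and the regulators Myod1 and Myog. The brightest were Des, the intermediate filament protein of muscle, with 116 ± 10.0 in fPS and 53.4 ± 7.35 in ES cells (adjusted p = 0.0764), and Myl3, a myosin light chain, with 58.2 ± 14.0 in fPS and 36.3 ± 15.5 in ES cells (SD, n = 3 each; adjusted p = 0.419, limma). Tnnt2, cardiac troponin T, chosen after its values were seen, had 56.8 ± 10.7 in fPS and 10.5 ± 7.40 in ES cells (SD, n = 3 each), and limma gave an adjusted p = 0.0504. The part of such cells in the level of Fabp3 was not tested.

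Fabp5, the epidermal-type protein that can deliver ligands to PPARδ, is encoded on chromosome 2 (GRCr8, chr2:93672451-93676186). It had 2035, 1949 and 950.3 on the fPS arrays, against 1404, 1563 and 919.9 on the ES arrays. The groups overlapped, because replicate 3 was the lowest array of each group, and without these arrays the fPS values lay above the ES values. The means were 1645 ± 603 in fPS and 1296 ± 335 in ES cells (SD, n = 3 each), a log2 difference of 0.30 (SE 0.341). Without both replicate 3 arrays it was 0.42 (SE 0.198). Single arrays moved this value: it was 0.11, 0.14 and 0.65 when fPS replicates 1, 2 and 3 were omitted in turn, and 0.37, 0.45 and 0.072 when ES replicates 1, 2 and 3 were. RefSeq lists Fabp5 pseudogenes, Fabp5-ps2 among them, and whether the probes also bind their transcripts is not known here.

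Both arrays with low Fabp5 were also those with the highest mean over 7 collagen genes, while other fibroblast genes ran differently across the arrays. The mean log2 level of 7 fibroblast collagens was 6.59, 6.31 and 7.47 on the fPS arrays and 5.60, 6.33 and 7.67 on the ES arrays. These genes mark fibroblasts, the feeder cell type, which here came from mouse. Of the full fibroblast list 21 of 21 genes were measured and 0 passed (limma, with 4 at an unadjusted p under 0.05), and their summed intensity ran from 7219 to 8175 in fPS and from 6845 to 9710 in ES cells. The brightest of the list were Fn1, fibronectin, with 3396 ± 109 in fPS and 4584 ± 713 in ES cells, and Timp1, a protease inhibitor, with 1947 ± 490 in fPS and 1472 ± 788 in ES cells (SD, n = 3 each). Timp1 had 2080, 2358 and 1404 on the fPS arrays, against 2106, 1722 and 590 on the ES arrays, so that replicate 3 was its lowest array in each group, as it was for Fabp5. Col1a2, a chain of type I collagen, had 260 ± 243 in fPS and 256 ± 395 in ES cells, and Col5a2, of type V, had 235 ± 219 in fPS and 283 ± 418 in ES cells (SD, n = 3 each), with replicate 3 the highest array of each group for both. Col6a2, of type VI and one of the 7 averaged, went the other way on ES replicate 3, with 5.03 to 27.9 in fPS cells, against 36.5, 41.0 and 1.63 in ES cells. Timp1 and Col6a2 are given by array after their values were seen. On replicate 3 Fabp3 was the highest of the fPS arrays, unlike Fabp5, and the lowest of the ES arrays, like Fabp5. The part of feeder RNA in the level of Fabp5 was not tested.

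**Figure D3:**
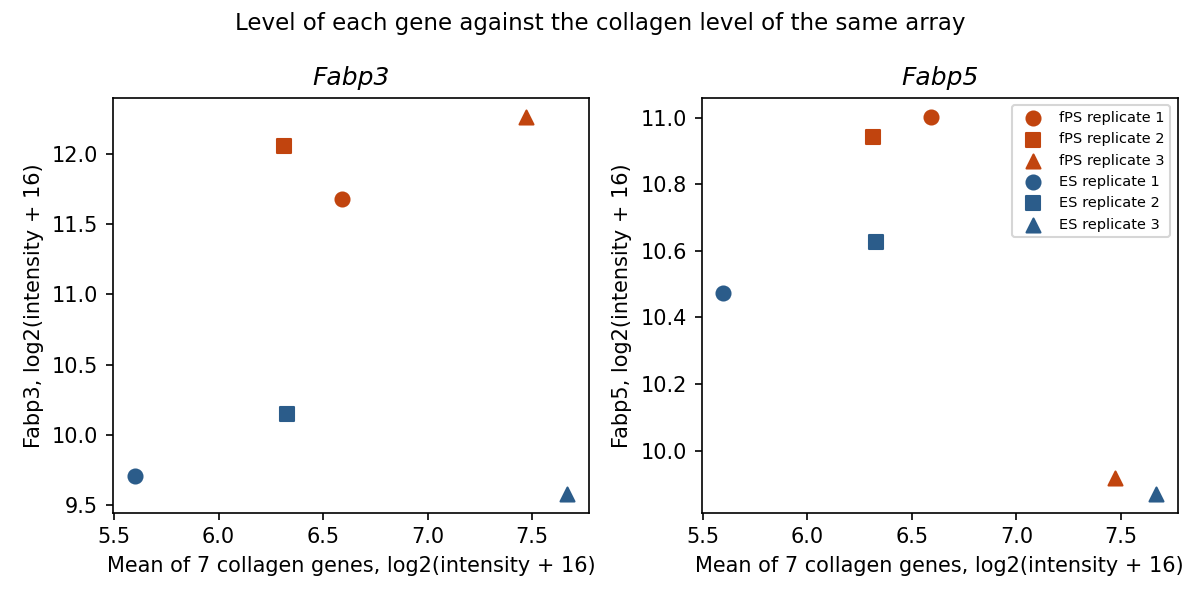
Level of Fabp3 (left) and Fabp5 (right) on each array, as log2(intensity + 16), against the mean of 7 collagen genes on the same array and scale. The replicate 3 arrays of both groups stand to the right, where Fabp5 is lowest, while Fabp3 separates fPS from ES arrays at both ends.

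The other members of the chromosome 2 cluster around Fabp5 were dim. Fabp12, Fabp4, Fabp9 and Pmp2, all genes of this protein family, lie between positions 93446966 and 93522648 on that chromosome, the nearest of them 149803 bases from Fabp5. Fabp4, the adipocyte and macrophage protein (chr2:93488251-93492961), had 1.57, 8.86 and 1.02 in fPS cells, against 8.25, 1.07 and 8.86 in ES cells, a log2 difference of -0.16 (SE 0.251). Its values fell into a low and a high set that cut across both groups. Fabp9, known from testis, had at most 7.39 and Pmp2, the myelin protein of this family, at most 11.6 on any array. Fabp12 had at most 12.9 on 5 arrays and lay at 41.7 on fPS replicate 3. On the other side of Fabp5, Pag1, a membrane adaptor protein, was dim as well, and Zfp704, a zinc finger gene, fell in fPS cells by 1.96 on the log2 scale (SE 0.296, limma, adjusted p = 0.0371). The other 2 of the 3 probe sets of Zfp704 had -0.20 and -1.14 and did not pass. Its call was lost whichever array was omitted, with differences from -2.11 to -1.70 (limma, adjusted p from 0.0535 to 0.179), and without both replicate 3 arrays (-1.49, adjusted p = 0.177). It was also lost with the replicate block (limma, adjusted p = 0.0678) and with pseudocounts of 1 and 64 (adjusted p = 0.142 and 0.0557). These neighbours were picked by position in the same way.

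Markers of the cells in which Fabp4 is known gave no called gene. Of the adipocyte list 8 of 9 were measured and 0 passed (0 at an unadjusted p under 0.05, limma), with sums of 186 to 347 in fPS and 202 to 210 in ES cells, and Adipoq, Lep and Pparg lay below the array median throughout. Lipe, hormone-sensitive lipase, and Cebpa, an adipogenic factor, were the brightest, with 107 ± 27.7 and 73.6 ± 31.5 in fPS cells, against 90.5 ± 9.60 and 40.6 ± 12.9 in ES cells (SD, n = 3). All 9 macrophage genes were measured and 0 passed, with 4 at an unadjusted p under 0.05 and sums of 253 to 374 in fPS and 159 to 178 in ES cells. In limma 2484 of all 14217 genes had such a p. The median difference of the macrophage list was 0.41. In 5 of the 9 each fPS array exceeded each ES array and in 0 the reverse held, where each pattern held for 11.3% of all genes. Below the array median on all arrays were 5 of the 9. Cd68, a lysosomal protein, had 110 ± 37.7 in fPS and 48.2 ± 9.55 in ES cells (SD, n = 3 each; limma, adjusted p = 0.138), and Lyz2, lysozyme, had 37.0 ± 7.08 in fPS and 34.9 ± 8.51 in ES cells. Of 9 endothelial genes 8 were measured and 0 passed (0 at an unadjusted p under 0.05), with Pecam1 and Flt1 the brightest at 227 ± 86.8 and 153 ± 67.1 in fPS cells, against 273 ± 140 and 174 ± 39.5 in ES cells (SD, n = 3).

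Fabp1, the liver-type protein, and Fabp2, the intestinal one, are carriers best known from hepatic and absorptive cells, in that order. Fabp1 (chr4:104744302-104753119) had 5.39, 20.9 and 12.2 in fPS cells, against 4.15, 17.3 and 9.0 in ES cells. In each group replicate 2 was the highest and replicate 1 the lowest array, so the spread within a group exceeded the difference of 0.14 (SE 0.280). Fabp2 (chr2:213724629-213728686) had 2.03, 1.37 and 1.91 in fPS cells, against 1.96, 1.48 and 1.92 in ES cells, a log2 difference of -0.0016 (SE 0.187). It lay below the 25th percentile of every array and was the flattest member.

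Genes of enterocytes, liver and visceral endoderm were set beside these carriers. Of all 14217 genes 0.57% rose, 0.288% fell and 2484 had an unadjusted p under 0.05 (limma). Of the 24 listed here, 22 were measured, 1 rose, 0 fell and 21 did not pass, and 10 had an unadjusted p under 0.05. The gene that rose was Apoa2, an apolipoprotein of high-density lipoprotein chosen after its values were seen, with 552 ± 236 in fPS and 105 ± 21.1 in ES cells (SD, n = 3 each) and a log2 difference of 2.14 (SE 0.352, limma, adjusted p = 0.0413). Without fPS replicate 1 it passed as well (2.56), whereas omitting fPS replicates 2 or 3 (1.97 and 1.91) or ES replicates 1, 2 or 3 (2.16, 2.26 and 2.01), or both replicate 3 arrays together (1.77), ended the call. The call also ended after quantile normalization (limma, adjusted p = 0.0539), with arrays centred on their median (0.0584), with the replicate block (0.0587) and with pseudocounts of 1 and 64 (0.152 and 0.0739). Lgmn, a lysosomal protease, and Cdx2, a factor of trophectoderm and gut, were the brightest, with 2064 ± 210 and 171 ± 64.5 in fPS cells, against 1490 ± 419 and 684 ± 297 in ES cells (SD, n = 3). The summed intensity of the list was 3336 to 3924 in fPS and 2391 to 3197 in ES cells. Alb, Afp, Apoa1, Apoa4 and Vil1 were among 9 genes below the array median on all arrays. Each fPS array exceeded each ES array in 7 of the 22, and the reverse held in 2. Each pattern held for 11.3% of all genes. Cdx2 and Cdx1 were the 2 with fPS lower. Cdx2 had a log2 difference of -1.86 (SE 0.372, limma, adjusted p = 0.0607) and Cdx1 of -0.97 (SE 0.359, adjusted p = 0.242). Gata4 and Cubn were among the 7. Cdx1, Gata4 and Cubn were chosen after their values were seen. Gata4 had 58.2 ± 8.62 in fPS and 19.7 ± 2.31 in ES cells (limma, adjusted p = 0.056). Cubn had 68.1 ± 18.2 in fPS and 14.8 ± 9.81 in ES cells (SD, n = 3 each; adjusted p = 0.0594). The part of such cells in the values of Fabp1 and Fabp2 was not tested.

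Fabp7, the brain-type protein of radial glia, is encoded on chromosome 20 (GRCr8, chr20:37667125-37673299). It had 3.55, 19.9 and 1.94 in fPS cells, against 0.915, 2.77 and 18.1 in ES cells, a log2 difference of 0.073 (SE 0.355). A single array of each group, fPS replicate 2 and ES replicate 3, stood above the others. Its sign changed with the arrays used, being -0.24 when fPS replicate 2 was omitted and 0.39 when ES replicate 3 was. Of 15 genes of neural progenitors and radial glia 13 were measured and 0 passed (limma, with 4 at an unadjusted p under 0.05), and their sum was 466 to 793 in fPS and 944 to 1126 in ES cells. Tubb3, a neuronal tubulin, and Slc1a3, the glial glutamate transporter, were the brightest, with 305 ± 134 and 89.1 ± 10.7 in fPS cells, against 608 ± 84.7 and 108 ± 27.1 in ES cells (SD, n = 3). Pax6, Sox1 and Ptprz1 were among 6 genes below the median on all arrays. Of the epidermal list, read beside Fabp5, 7 of 9 were measured and 0 passed (0 at an unadjusted p under 0.05), with sums of 441 to 1289 in fPS and 672 to 909 in ES cells. Sfn, an epithelial 14-3-3 protein, had 733 ± 391 in fPS and 674 ± 85.6 in ES cells, and Krt10, a keratin, had 86.1 ± 42.2 in fPS and 94.96 ± 33.2 in ES cells (SD, n = 3 each).

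Of 20 pluripotency genes 12 were measured. Both groups are stem cells of this state by their names, so genes bright in both do not check the labels. Pou5f1, Nanog and Zfp42, central markers of this state, were among the 8 not analysed here, since no probe set carried their symbol alone in the annotation. Epcam, an adhesion protein of epithelial and pluripotent cells, and the transcription factors Klf2 and Klf5 were the brightest, with 3548 ± 101, 3453 ± 957 and 3056 ± 39.9 in fPS cells, against 3511 ± 542, 3657 ± 267 and 2454 ± 333 in ES cells (SD, n = 3). None of the 12 passed (limma, with 2 at an unadjusted p under 0.05). These 2, chosen after their values were seen, were the transcription factor Sox2 and the RNA-binding protein Lin28a, and in both each fPS array lay below each ES array. Sox2 had 2838, 1856 and 1281 in fPS cells, against 3427, 3266 and 4618 in ES cells, a log2 difference of -0.97 (SE 0.309, limma, adjusted p = 0.181). Lin28a had 669, 351 and 424 in fPS cells, against 1559, 866 and 1161 in ES cells, a difference of -1.30 (SE 0.308, limma, adjusted p = 0.0933).

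The remaining genes of fatty acid handling were read in 7 lists that do not contain the members. Together they held 111 measured genes of 121 listed, of which 0 were higher and 0 lower in the limma fit, and 18 had an unadjusted p under 0.05. Over all genes 81 were higher, 41 lower and 2484 had an unadjusted p under 0.05. The median difference of the 111 genes was 0.070.

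Of the other intracellular lipid-binding proteins, relatives of the same fold, 8 of 10 were measured and 0 passed. Their median difference was 0.31, against -4.6e-05 over all genes, and 7 of 8 had a positive sign. However, 4 of the 8, Fabp6, Fabp9, Pmp2 and Rbp2, lay below the array median on all arrays, so their signs carry little. The largest difference was that of Rbp7, 1.09 (SE 0.275, limma, adjusted p = 0.107). Rbp7, named after its values were seen, had 62.9 ± 23.6 in fPS and 20.0 ± 4.25 in ES cells (SD, n = 3 each). Crabp1 and Crabp2, which bind retinoic acid, were the brightest. Crabp1 had 4783, 4318 and 3047 in fPS cells, against 2573, 3227 and 1774 in ES cells, a log2 difference of 0.69 (SE 0.285, limma, adjusted p = 0.289). Crabp2 had 68.3, 62.4 and 108 in fPS cells, against 41.0, 27.4 and 32.1 in ES cells, a difference of 0.93 (SE 0.246, adjusted p = 0.121). The groups of Crabp1 overlapped and those of Crabp2 did not. As with Fabp5, replicate 3 was the lowest array of each group for Crabp1.

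Of 18 genes of fatty acid uptake and activation measured, 0 passed and the median was 0.13. The brightest were Got2, a mitochondrial transaminase also found at the cell surface, with 1634 ± 281 in fPS and 2320 ± 891 in ES cells, and Dbi, the acyl-CoA binding protein, with 1582 ± 83.7 in fPS and 1912 ± 395 in ES cells (SD, n = 3 each). Cd36, a fatty acid translocase, lay below the array median throughout. Of 14 nuclear receptors and coactivators 0 passed and the median was 0.047, with differences from -0.55 to 0.98. Nr1h2, a liver X receptor, and Ppargc1b, a coactivator, had 103 ± 38.3 and 92.7 ± 7.72 in fPS cells, against 149 ± 23.3 and 146 ± 88.2 in ES cells (SD, n = 3). Ppara and Pparg were dim on all arrays. Ppard, the receptor to which FABP5 delivers ligands, was chosen after its values were seen, and had 155, 121 and 114 in fPS cells, against 37.9, 81.5 and 58.9 in ES cells. Its groups did not overlap, and the log2 difference of 0.98 (SE 0.264) did not pass (limma, adjusted p = 0.125). These values are of the brighter of its 2 probe sets.

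Of 17 PPAR target genes measured 0 passed, with a median of 0.16 and differences from -0.60 to 1.34. In 3 of them each fPS array exceeded each ES array, a pattern of 11.3% of all genes. Plin2, which coats lipid droplets, had 1533, 1995 and 2277 in fPS cells, against 688, 831 and 990.1 in ES cells. No fPS array overlapped the ES arrays, and the log2 difference of 1.19 (SE 0.240) missed the threshold (limma, adjusted p = 0.0616). Acadm, a dehydrogenase of medium-chain fatty acids, had 559 ± 25.4 in fPS and 417 ± 138 in ES cells (SD, n = 3 each). Pdk4, a kinase that turns mitochondria from glucose towards fatty acids, was chosen after its values were seen, with 97.5, 181 and 133 in fPS cells, against 35.8, 40.1 and 55.6 in ES cells. Its log2 difference was 1.34 (SE 0.261, limma, adjusted p = 0.058). Plin2 and Pdk4 have 2 probe sets each, and the values given are of the brighter. With the mean over all probe sets of a gene, 2 PPAR targets had an unadjusted p under 0.05 in limma, against 3 as reported. The 3 as reported were Pdk4, Plin2 and Creb3l3, the last with 1 probe set and named after its values were seen. Values of the dimmer probe sets of Pdk4 and Plin2 are not given here, so the difference of each rests on 1 probe set. With the dimmest 30% of probe sets left out, Pdk4 and Plin2 passed (adjusted p = 0.0223 and 0.03), as they did with the trend and robust settings of limma (adjusted p = 0.0295 and 0.0249). Over all alternatives the adjusted p of Pdk4 and Plin2 reached 0.249 and 0.259.

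Of 20 genes of β-oxidation, the mitochondrial pathway to which cytosolic carriers bring fatty acids, 0 passed and the median was -0.057. Hadhb, a subunit of the trifunctional protein, had 1457 ± 194 in fPS and 2190 ± 593 in ES cells, and Etfa, an electron carrier, had 1120 ± 112 in fPS and 1719 ± 384 in ES cells (SD, n = 3 each), with limma's adjusted p = 0.326 and 0.267. Of 18 genes of fatty acid synthesis and desaturation 0 passed and the median was -0.037, with differences from -0.97 to 0.63. Scd2, a desaturase, had 3501 ± 353 in fPS and 3617 ± 727 in ES cells, and Acly, which makes cytosolic acetyl-CoA, had 2067 ± 197 in fPS and 2745 ± 1463 in ES cells (SD, n = 3 each). Of 21 genes of lipid droplets and lipolysis 0 passed, the median was 0.068, and the groups were apart in 8, with fPS higher in 6 and lower in 2, where each of these patterns held for 11.3% of all genes. Plin3, a droplet protein of many cell types, had 2006 ± 301 in fPS and 2455 ± 646 in ES cells (SD, n = 3 each).

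**Figure D4:**
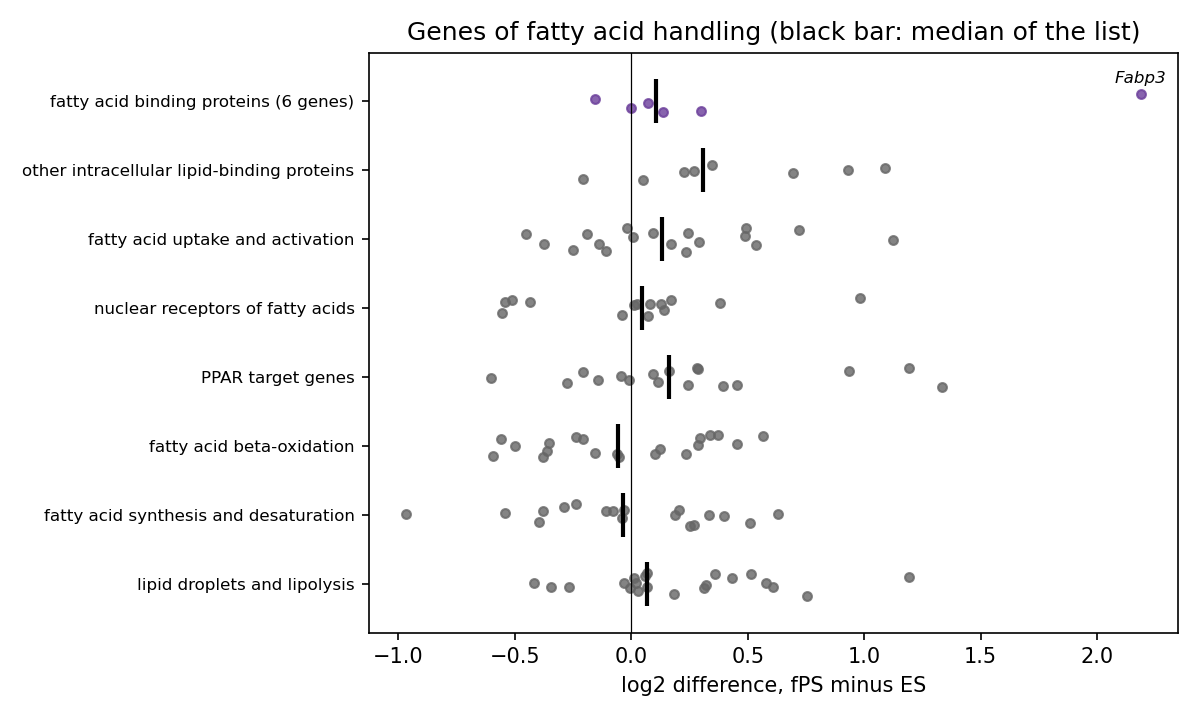
Log2 difference, fPS minus ES, of each measured gene of the members (top) and of 7 lists of fatty acid handling, with the median of each as a black bar. Fabp3 lies at 2.19, beyond all genes of the 7 lists, and the medians lie between -0.057 and 0.31.

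The genes whose levels followed each member most closely were found by Pearson's r of log2 values over the 6 arrays, among 7080 genes at or above the median level and outside the family. For Fabp3 these were Unc5b, a netrin receptor, Mgmt, a DNA repair enzyme, and Vhl, the tumour suppressor that marks HIF for degradation. Their r with Fabp3 was 0.996, 0.996 and 0.995. Vhl had 1413, 2023 and 2012 in fPS cells, against 569, 703 and 577 in ES cells, without overlap of the groups. With 6 arrays in 2 groups, r over 0.95 with Fabp3 occurred in 108 of the 7080 genes. For Fabp5 they were C8h15orf61, Med31, a Mediator subunit, and Rimkla, an enzyme of dipeptide synthesis (r = 0.999, 0.993 and 0.991), and 27 genes exceeded 0.95. Med31 had 1388, 1389 and 776 in fPS cells, against 1089, 1141 and 825 in ES cells, with replicate 3 lowest in each group. Vhl and Med31 were picked for likeness on these same arrays, so their patterns follow from that choice. For the dim members the closest genes were Atxn2l, Pcgf1 and Smc4 (Fabp1), Natd1, Gng12 and Crcp (Fabp2), Mboat7, Uty and Isoc1 (Fabp4) and Adam17, Wdr45b and Tfcp2l1 (Fabp7), with r from 0.935 to 0.997. For these members 2, 3, 0 and 11 genes exceeded 0.95, in that order. All 4 lay below the array median on every array, so their r values carry little. All r values given here share the same 6 arrays.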

How the data were processed

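Linear intensities, 1 per probe set and array, were deposited by the authors for 6 arrays. Biotin-labelled cRNA was prepared from total RNA, per the labels' protocols. How probes were summarised, corrected for background and scaled is not given in the sources used here. Of 31099 probe sets listed, 57 controls were left out. The platform's annotation gave 1 symbol to 20826 probe sets, several to 436 and none to 9780. Gene identifiers of 20758 were found in RefSeq genes of GRCr8, with 0 symbols changed. Of several probe sets of a gene the brightest was used.

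Values were analysed as log2(intensity + 16) by lmFit and eBayes of limma 3.58.1 (R 4.3.3), adjusted by Benjamini-Hochberg over all 31042 probe sets. The fit was tested on simulated data. Named genes were all members, per pathway list those past the threshold filled up to 2 with the brightest, the brightest 2 of each marker list (3 for pluripotency) and the 3 genes most like each member. The members and lists were chosen with earlier results of these data known. Same-numbered samples deviated together only weakly over all probe sets (r = 0.151, 0.020 and 0.075), so the numbers were not used as pairs. With the numbers as a block the SE fell for Fabp5 (0.341 to 0.224) and Fabp1 (0.280 to 0.211). It rose for Fabp2 (0.187 to 0.211) and Fabp4 (0.251 to 0.282), and changed little for Fabp3 (0.249 in both) and Fabp7 (0.355 to 0.359). Other pseudocounts, scalings, filters, probe set choices, variance settings, a replicate block and left-out arrays were tried. Figures used matplotlib 3.10.9 in Python 3.11.15. The number of arrays limits the precision.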

Additional observations from a re-analysis of the deposited data

How the results depend on the processing

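The count of called probe sets, 215 as reported, was 0 with a pseudocount of 1, 41 with a pseudocount of 64, 339 after quantile normalization, 759 without the dimmest 30% of probe sets, 619 with the trend and robust settings, 107 with the replicate block, 0 without both replicate 3 arrays, and 0 to 162 when single arrays were left out. At an unadjusted p under 0.05 limma gave 3943 with a pseudocount of 1, 4618 without both replicate 3 arrays, 3215 without fPS replicate 2 and 3824 without ES replicate 1. With arrays centred on their median 291 passed, 107 higher and 184 lower in fPS cells, against 124 higher and 91 lower as reported. The number of members past the threshold, 1 as reported, was 0 with a pseudocount of 1 and without both replicate 3 arrays, and 0 to 1 without single arrays. Fabp2 moved to -0.035 after quantile normalization and Fabp4 to -0.63 with a pseudocount of 1, where dim values weigh more. The other differences of Fabp1, Fabp3, Fabp5 and Fabp7 moved by less than 1 SD of their replicates in the alternatives run. Of the genes of fatty acid handling 2 passed without the dimmest 30% of probe sets and 2 with the trend and robust settings, and 0 in the other 14 alternatives, the replicate block among them. The cause of these changes was not tested. Without the dimmest 30% of probe sets, Fabp1, Fabp2, Fabp4 and Fabp7 had no value. The small number of arrays and the lack of detection calls limit what the dim members can show.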
